A study of Mus musculus with 6 samples.

Results

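The Tdpoz genes encode proteins with a TRAF domain and a POZ (BTB) domain and are transcribed at the two-cell stage of the mouse embryo. They were taken here as the rows of the expression table whose gene symbol was Tdpoz1, Tdpoz2, Tdpoz3, Tdpoz4 or Tdpoz5, which gave 5 of 53023 genes. RNA was sequenced from late two-cell embryos of the ICR strain, collected 28 h after insemination, with 5 embryos pooled in each of 6 libraries and the zona removed. In the PIASy-WT group (2 libraries), the zygotes had been injected with mRNA for wild-type PIASy, a SUMO E3 ligase, and in the PIASy-Mut group (2 libraries) with mRNA for the C335F mutant of its RING finger, which disables the ligase. Both mRNAs carried an mCherry and HA tag, were injected into the cytoplasm at 100 ng/µl from 1.5 to 3 h after insemination, and only zygotes that fluoresced at 9 h were kept. The non-injection group (2 libraries) received no injection and no such selection. In the comparisons of PIASy-Mut and of PIASy-WT with non-injection, injection and selection therefore cannot be told apart from the injected protein. The question was how the Tdpoz genes stood when the ligase was in excess, and whether the mutant left them at the level of untouched embryos.

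The POZ domain of such proteins binds the scaffold CUL3 of a ubiquitin ligase, and the TRAF (MATH) domain holds the substrate, an arrangement best known from SPOP, which the Tdpoz proteins resemble. The Tdpoz genes lie in a cluster on chromosome 3 with many near copies, and their transcripts are known from the growing oocyte and the cleavage embryo. By the GENCODE annotation of GRCm38 (mm10), all 5 were protein-coding genes, 4 of them with a single exon. Tdpoz2 lay at chr3:93651542-93652686 on the minus strand and Tdpoz1, with 2 transcripts and 2 exons, at chr3:93669333-93676310, also minus. Tdpoz4 lay at chr3:93796398-93797510 and Tdpoz3 at chr3:93826020-93827117, both on the plus strand. Tdpoz5 lay at chr3:93960292-93961314 on the minus strand. None of the 5 overlapped another gene of the table. The predicted proteins had 365 (Tdpoz1), 360 (Tdpoz2), 365 (Tdpoz3), 370 (Tdpoz4) and 340 residues (Tdpoz5).

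The similarity of the copies decides how well a short read can be placed, so the first 90 coding bases are shown for the 5 genes and for 1 close copy each of Tdpoz1 and Tdpoz5. These are Gm9125, which RefSeq names Tdpoz9, and Gm10697, which RefSeq names Tdpoz7. Sequences come from the GENCODE transcripts, read from the start codon on the coding strand, with capitals where a base differs from Tdpoz1.
Tdpoz1: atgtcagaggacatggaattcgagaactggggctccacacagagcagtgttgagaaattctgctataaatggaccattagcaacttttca
Tdpoz2: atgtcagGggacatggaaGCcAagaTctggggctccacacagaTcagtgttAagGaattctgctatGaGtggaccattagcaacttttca
Tdpoz3: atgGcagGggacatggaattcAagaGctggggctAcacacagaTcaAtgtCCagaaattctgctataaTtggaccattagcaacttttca
Tdpoz4: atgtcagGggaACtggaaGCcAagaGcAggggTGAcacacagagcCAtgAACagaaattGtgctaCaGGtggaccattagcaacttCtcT
Tdpoz5: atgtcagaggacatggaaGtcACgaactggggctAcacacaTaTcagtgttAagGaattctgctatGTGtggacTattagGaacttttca
Gm9125: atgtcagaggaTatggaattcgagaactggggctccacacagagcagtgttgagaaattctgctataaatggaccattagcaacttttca
Gm10697: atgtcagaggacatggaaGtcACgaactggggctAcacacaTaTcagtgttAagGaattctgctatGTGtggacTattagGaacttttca
In this stretch Tdpoz4 differed from Tdpoz1 at 22 of 90 bases, Tdpoz5 at 13, and Tdpoz2 and Tdpoz3 at 10 each. Gm9125 differed at 1 base, and Gm10697 had the same letters as Tdpoz5. Over the whole coding sequence, Tdpoz1 and Tdpoz3 were the closest pair of the 5, with 88.0% identical bases, and Tdpoz4 and Tdpoz5 the most distant, with 72.0%. Tdpoz1 was 98.4% identical to Gm9125 and also to Gm9117, with which it shared the most stretches. Tdpoz5 and Gm10697 were 100.0% identical. Spop, the founding relative on chromosome 11, was 66.0 to 69.9% identical to the 5 genes.

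The read pairs had 50 and 25 bases, and reads that mapped to more than one place were not counted, so a read that lies wholly in a stretch held by another gene could seldom be counted. Of all 50-base stretches, another annotated gene held 44.4% in Tdpoz1, 48.3% in Tdpoz2, 66.2% in Tdpoz3 and 41.2% in Tdpoz4. For Tdpoz5 the share was 100.0%, all of them held by Gm10697. The FPKM (fragments per kilobase of gene and per 1000000 fragments on genes) is divided by the whole length, so it can understate the levels of the genes to different degrees. A ratio of one gene between groups depends less on this than an order between genes does.

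**Figure D1:**
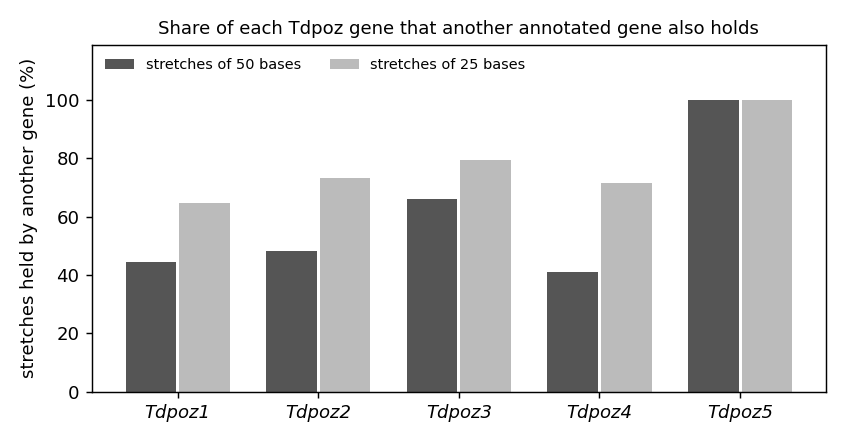
Share (%) of the stretches of 50 bases (dark bars) and of 25 bases (light bars) of each Tdpoz gene that another annotated gene also holds. Tdpoz5 shares 100.0% at both lengths, and the other 4 genes share 41.2 to 66.2% at 50 bases.

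The libraries held 871663 to 1363928 fragments on genes, with the shallowest being PIASy-Mut replicate 2. The injected gene Pias4 read 862.1 and 610.7 FPKM with PIASy-Mut, 609.9 and 578.5 with PIASy-WT and 2.98 and 3.59 without injection, as the labels say, and these values count injected and endogenous mRNA together. All 7 two-cell markers were measured, summing to 1040 to 1360 CPM (fragments per 1000000 fragments on genes) with PIASy-WT, 1830 to 2140 with PIASy-Mut and 1810 to 1910 without injection. The 8 oocyte markers summed to 7810 to 8120 CPM with PIASy-WT, 4140 to 6510 with PIASy-Mut and 4030 to 4470 without injection. Bmp15 made up much of this difference, since the other 7 summed to 3280 to 4190 CPM with PIASy-WT and 3140 to 4230 with PIASy-Mut, which overlap, and to 2620 to 2990 without injection. Zp3 was the 1 oocyte marker called at a log2 fold change of 1 and was lower, at −1.57 against non-injection and −1.67 against PIASy-Mut (limma adjusted p = 0.0292 and 0.0240). Of 8 cumulus cell markers, Foxl2 and Inhba were at 0 in every library, and the sum was 12.2 to 23.3 CPM, with 12.2 to 13.6 in PIASy-WT. The 5 sperm markers, with Tnp2 at 0, summed to 2.61 to 3.02 CPM with PIASy-WT, 1.94 to 3.44 with PIASy-Mut and 3.54 to 4.4 without injection. Only the injected groups overlapped. Amhr2 alone carried the lower cumulus sum, at 2.26 to 3.48 CPM with PIASy-WT and 9.18 to 16.1 in the other groups, while the other 7 summed to 8.70 to 11.3 with PIASy-WT, 9.69 to 10.3 with PIASy-Mut and 5.13 to 6.19 without injection. Of the two-cell sum, Zfp352 and Tcstv3 made up 479 to 658 CPM with PIASy-WT and 1100 to 1210 in the other groups, and the other 5 genes 565 to 697 against 612 to 995. These shifts moved with the groups, and their part in the differences described next was not tested. Fewer cells carrying a transcript and less RNA per cell cannot be told apart in pooled embryos.

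In untouched two-cell embryos, 4 of the 5 genes gave a signal. Tdpoz1 averaged 36.5 ± 5.30 FPKM (SD, n = 2), above 88.6% of the 16100 tested genes, whose median was 3.69. Tdpoz4 averaged 35.2 ± 1.46 FPKM, and the libraries of these 2 genes overlapped, so their order was not resolved. Tdpoz3 followed at 21.8 ± 1.25 FPKM, lower than both in each library. Tdpoz2 averaged 8.94 ± 8.11 FPKM, with a spread nearly as large as its mean. Counted per unshared stretch instead of per length, an alternative added after the data were seen, the levels of Tdpoz1, Tdpoz3 and Tdpoz4 lay together at 67.0, 67.5 and 62.6, with Tdpoz2 at 18.0. The lower FPKM of Tdpoz3 among these 3 therefore did not hold on that scale. The scale is itself rough and can overcorrect, since a read pair can be placed when only 1 of its reads is unshared.

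**Figure D2:**
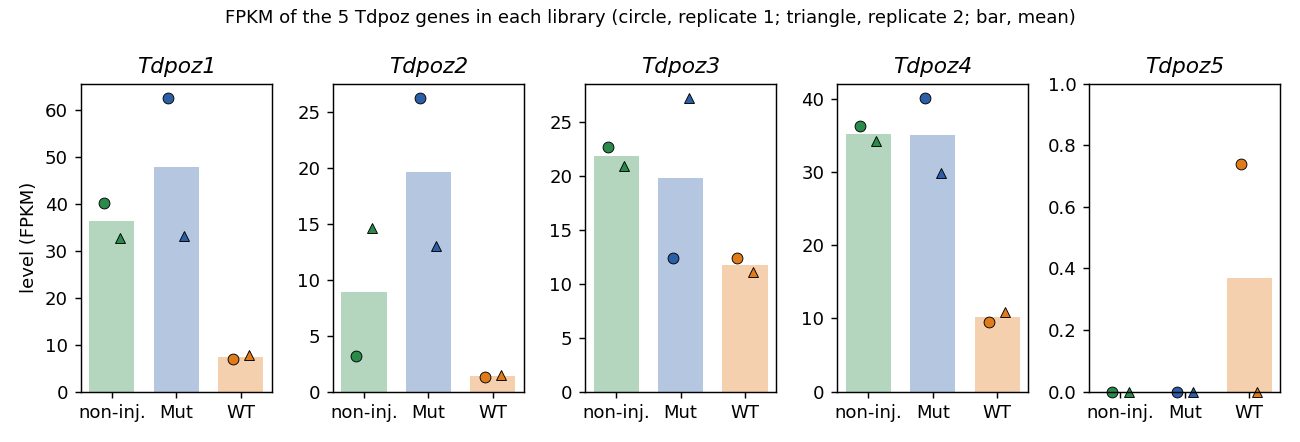
FPKM (y axis, linear, a separate scale for each gene) of the 5 Tdpoz genes in non-injection (green), PIASy-Mut (blue) and PIASy-WT (orange) embryos; circles are replicate 1, triangles replicate 2 and bars the mean of 2 libraries. Both PIASy-WT points lie below the other 4 for Tdpoz1, Tdpoz2 and Tdpoz4, at 7.05 and 7.77 FPKM against 32.7 to 62.6 for Tdpoz1, and Tdpoz5 has 1 point above 0.

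In embryos with excess wild-type PIASy, Tdpoz1 and Tdpoz4 were lower than in both other groups, Tdpoz2 was left with 2 fragments in each library, and Tdpoz3 differed least. Tdpoz1, which had the highest mean FPKM in the other groups, measured 7.05 and 7.77 FPKM with PIASy-WT, 62.6 and 33.2 with PIASy-Mut and 40.2 and 32.7 without injection. Both PIASy-WT libraries lay below the other 4, while the PIASy-Mut and non-injection libraries overlapped. Against non-injection the log2 fold change was −2.15 (SE 0.36, limma adjusted p = 0.0328), 4.43 times lower on the log2(FPKM + 1) scale. Against PIASy-Mut it was −2.47 (SE 0.36, limma adjusted p = 0.0269), 5.55 times lower. The fragments behind these values were 22, 21, 152, 68, 129 and 87 in the same order of libraries. Each of these calls lost its adjusted p of 0.05 when 1 library was left out, in 4 of 6 cases against non-injection (either non-injection or either PIASy-WT library) and 5 of 6 against PIASy-Mut (all but PIASy-Mut replicate 2). The adjusted p was then 0.184 to 0.244 and 0.0977 to 0.217, with fold changes of −2.00 to −2.29 and −2.02 to −2.53.

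Tdpoz4, whose coding sequence stands furthest from that of the others, showed the same split with the smallest standard error of the tested members. It measured 9.49 and 10.9 FPKM with PIASy-WT, 40.0 and 29.9 with PIASy-Mut and 36.2 and 34.2 without injection, from 14, 14, 46, 29, 55 and 43 fragments. The PIASy-WT libraries lay below all others by more than the spread within any group. Against non-injection the log2 fold change was −1.69 (SE 0.27, limma adjusted p = 0.0318), and against PIASy-Mut −1.67 (SE 0.27, limma adjusted p = 0.0295). It thus passed the adjusted p but not the change of 2 on the log2 scale that the study's threshold asks for. Its adjusted p rose to between 0.165 and 0.244 against non-injection, and to between 0.107 and 0.217 against PIASy-Mut, without the same single libraries as for Tdpoz1.

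Tdpoz2 was the most variable of the 4. It measured 1.32 and 1.52 FPKM with PIASy-WT, 26.2 and 13.0 with PIASy-Mut and 3.20 and 14.7 without injection. Both PIASy-WT libraries held 2 fragments, under the limit of 3 that a count of 0 allows, and were again the lowest of the 6. Summed over libraries, 4 fragments in PIASy-WT stood against 24 without injection, a ratio of 5.95 (95% exact interval 2.04 to 23.6, counting error only). Against the 44 fragments of PIASy-Mut the ratio was 14.3 (5.21 to 54.8). With the spread between libraries included, the limma adjusted p was 0.159 against non-injection (log2 fold change −1.75, SE 0.68) and 0.0542 against PIASy-Mut (−3.02, SE 0.68), so neither comparison passed. The log2 fold change against non-injection was −2.70 without non-injection replicate 1 and −0.80 without non-injection replicate 2, and against PIASy-Mut it ran from −3.49 to −2.54 over the libraries left out.

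Tdpoz3, the member closest to Tdpoz1 in coding sequence, differed least of the 4. It measured 12.4 and 11.1 FPKM with PIASy-WT, 12.4 and 27.2 with PIASy-Mut and 22.7 and 20.9 without injection. PIASy-Mut replicate 1, with 14 fragments, read as low as the PIASy-WT libraries with 18 and 14, so PIASy-Mut and PIASy-WT overlapped. Both non-injection libraries lay above both PIASy-WT libraries. The log2 fold changes were −0.84 (SE 0.40, limma adjusted p = 0.227) and −0.61 (SE 0.40, limma adjusted p = 0.379), against non-injection and PIASy-Mut in that order. The value against PIASy-Mut was −1.15 without PIASy-Mut replicate 1 and −0.07 without PIASy-Mut replicate 2. Tdpoz5 had a single fragment, in PIASy-WT replicate 1 (0.738 FPKM), and 0 in the other 5 libraries. A count of 0 allows up to 2.15 to 3.36 FPKM there, and with no unshared stretch the counting could not have seen this gene well in any group.

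At the study's threshold (adjusted p no higher than 0.05, log2 fold change of 2 or more in either direction), 1 of the 4 tested members, Tdpoz1, was lower with PIASy-WT than without injection, beside 3.81% of all tested genes. Against PIASy-Mut the count was also 1, again Tdpoz1, beside 4.06%. With a log2 fold change of 1, a rule added after the data were seen, Tdpoz1 and Tdpoz4 were lower in both comparisons, beside 5.76% of all genes against non-injection and 6.01% against PIASy-Mut. No member was higher in PIASy-WT under that rule, beside 1.03% and 0.82% of genes. Both PIASy-WT libraries lay below the other 4 for 3 of the 4 tested members, and for 24.4% of all tested genes. The median log2 fold changes of the 4 were −1.72 and −2.07 in the same order of comparisons, where the medians over all genes were 0.01 and −0.03. The 2 comparisons share the PIASy-WT libraries and are not independent of each other. Without any 1 of the non-injection or PIASy-WT libraries, 0 of all tested genes were lower by either rule in either comparison, and without PIASy-Mut replicate 1 the same held against PIASy-Mut, so the loss of the members' calls was shared by every gene called lower.

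The mutant ligase left the members without a call in either direction. The log2 fold changes of PIASy-Mut against non-injection were 0.32 (SE 0.36) for Tdpoz1, 1.27 (SE 0.68) for Tdpoz2, −0.23 (SE 0.40) for Tdpoz3 and −0.02 (SE 0.27) for Tdpoz4. The limma adjusted p was 1 for each, and the count at an unadjusted p under 0.05 was also 0, beside 4.46% of all tested genes. In the PIASy-WT comparisons 3 of the 4 members were under that limit, beside 28.2% of genes against non-injection and 27.7% against PIASy-Mut. Among all tested genes this comparison called 1, Pias4, which is 0.00621%. The standard errors leave room for differences, most of all for Tdpoz2, which read 0.32 without non-injection replicate 1 and 2.22 without non-injection replicate 2.

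Summed over the 5 genes, fragments of the family made up 43.01 and 44.4 CPM with PIASy-WT, 235.4 and 156.0 with PIASy-Mut and 163.5 and 154.8 without injection. The mean of PIASy-WT was 3.64 times below that of non-injection and 4.48 times below that of PIASy-Mut. The makeup of what remained read differently as well, from only 57 and 51 fragments of the members in the PIASy-WT libraries. Tdpoz1 supplied 38.6 and 41.2% of the members' fragments with PIASy-WT and 49.7 to 62.6% in the other 4 libraries. Tdpoz3 supplied 31.6 and 27.5% with PIASy-WT and 5.8 to 19.1% in the others, and both ranges stayed apart. The FPKM of Tdpoz1 was 1.22 to 5.07 times that of Tdpoz3 in the 4 libraries without excess ligase and 0.57 and 0.70 times in PIASy-WT. Per unshared stretch this ratio was 1.05 and 0.928 without injection, 3.01 and 0.725 with PIASy-Mut and 0.339 and 0.416 with PIASy-WT, so Tdpoz1 was above Tdpoz3 in only 2 of the 4 other libraries on that scale, while PIASy-WT remained lowest. The order by FPKM in PIASy-WT was Tdpoz3 (11.7 ± 0.902, SD, n = 2), Tdpoz4 (10.2 ± 1.03), Tdpoz1 (7.41 ± 0.502) and Tdpoz2 (1.42 ± 0.143). The first pair was separated by less than the sum of their SDs, from 14 to 18 fragments per library. Per unshared stretch, Tdpoz4 stood at 0.441 and 0.567 times Tdpoz3 there, so this near tie did not hold on that scale. This difference in the makeup was not tested, and the counts behind it are small.

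**Figure D3:**
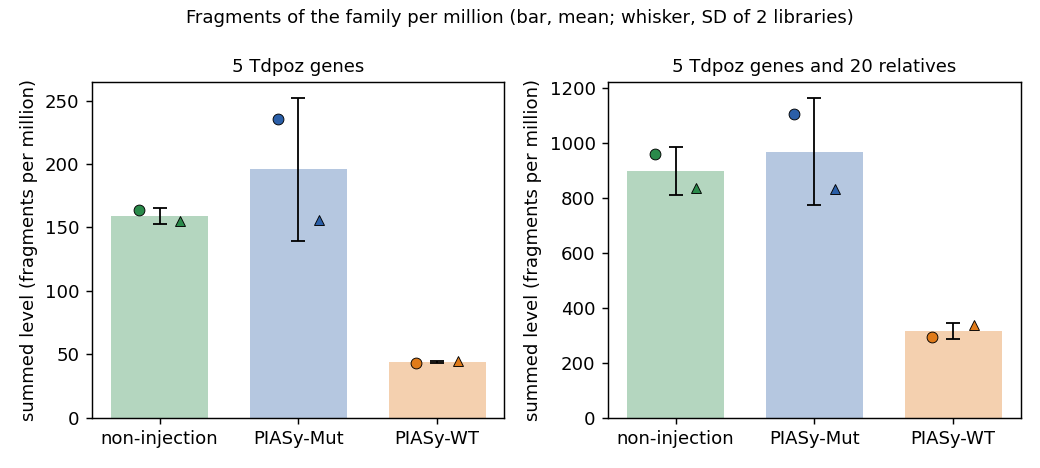
Level in CPM (y axis, linear from 0) summed over the 5 Tdpoz genes (left) and over these and 20 relatives by sequence (right); bars are means, whiskers the SD and points the 2 libraries of each group. In both panels the PIASy-WT libraries lie lowest, at 43.01 and 44.4 on the left and 295 and 336.7 on the right.

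The cluster around the members held further copies under provisional names. Of 78 genes within 500 kb of a member, 19 others had at least 70% identity to the coding sequence of a member over at least 50% of its length. With Gm4858 (Tdpoz8 in RefSeq), which lies further off on chromosome 3, there were 20 relatives on this chromosome, 9 annotated as protein coding and 11 as pseudogenes. This set was drawn up after expression values had been seen, by sequence and by its place on chromosome 3. Spop, on chromosome 11, also met the sequence rule (72.1% identity over 96.2% of the coding sequence of Tdpoz4), but was kept apart and is described later. Gm10697 was too low to be tested, and the other 19 had log2 fold changes below 0 in both comparisons, between −2.76 and −0.27 against untouched embryos and between −2.85 and −0.45 against the mutant. Of these, Gm5773, Gm9116 and Gm9141 did not reach an FPKM of 1 in both PIASy-WT libraries and passed the filter through the other groups, which favours a lower value, and Gm9116 had no more than 3 fragments in any library. Among the other 16, the medians were −1.40 and −1.50, and both PIASy-WT libraries lay below the other 4 in 15, beside 24.4% of all tested genes. Lower by a log2 fold change of 1 with the adjusted p were 4 of 19 against non-injection, beside 5.76% of all genes, and 6 against PIASy-Mut, beside 6.01%, and 3 were so in both. Across the settings that kept all libraries compared, the counts ran from 0 to 10 and from 0 to 8. The copies are so alike that fragments may be assigned to the wrong one, so their values are uncertain. As for all genes, both counts became 0 without either PIASy-WT or either non-injection library, and the count against PIASy-Mut also without PIASy-Mut replicate 1.

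Among the relatives, Gm5543, a pseudogene, had the highest mean over all libraries, with 40.9 FPKM in PIASy-WT, 155.5 in PIASy-Mut and 170.3 without injection. The log2 fold change came to −2.10 against non-injection (limma adjusted p = 0.0328) and −1.97 against PIASy-Mut (0.0348). Gm9125 (Tdpoz9), a near twin of Tdpoz1, averaged 3.62, 22.5 and 21.3 FPKM in the same order, with log2 fold changes of −2.27 (limma adjusted p = 0.0308) and −2.29 (0.0284). Gm5541, a pseudogene with 97.3% identity to Tdpoz4, averaged 5.58, 41.9 and 37.9 FPKM, with −2.76 (limma adjusted p = 0.0447) and −2.85 (0.0420). Gm10696 (Spopfm2) was lower against non-injection only by the test, at −1.55 (limma adjusted p = 0.0439) and −1.23 against PIASy-Mut (0.0687). Gm9117, the other near twin of Tdpoz1, Gm9121 and Gm4858 passed against PIASy-Mut, at −1.93, −1.50 and −1.50, and read −1.44, −1.36 and −1.27 against non-injection, with adjusted p of 0.0657, 0.0585 and 0.0522. Gm4778 (Spopfm1), the highest of the relatives in PIASy-WT, differed least against non-injection, at 60.9, 97.98 and 74.3 FPKM and log2 fold changes of −0.27 and −0.66, neither of which passed. Over members and relatives together, the fragments came to 295.0 and 336.7 CPM with PIASy-WT, 1105 and 830.6 with PIASy-Mut and 958.3 and 835.7 without injection, the mean with PIASy-WT being 3.06 times below that of PIASy-Mut and 2.84 times below that of non-injection.

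**Figure D4:**
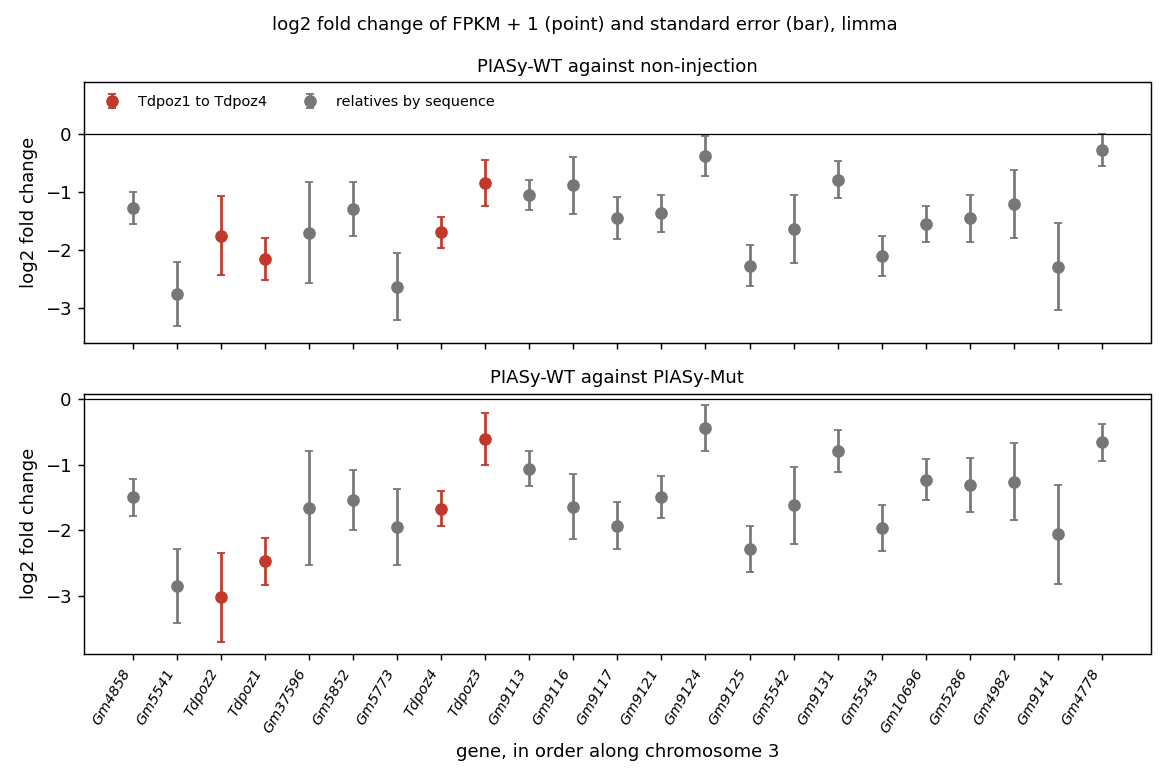
Log2 fold change of FPKM + 1 (point) and its standard error (bar) from limma for Tdpoz1 to Tdpoz4 (red) and 19 tested relatives (grey), in their order along chromosome 3, for PIASy-WT against non-injection (top) and against PIASy-Mut (bottom). All points lie below 0, with Tdpoz3 at −0.84 and −0.61 and Gm4778 at −0.27 and −0.66 among the smallest.

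The related genes on other chromosomes were not lower with PIASy-WT. Spop, the substrate adaptor of CUL3, measured 34.6 and 41.0 FPKM with PIASy-WT, 38.03 and 33.1 with PIASy-Mut and 30.2 and 34.2 without injection, with log2 fold changes of 0.23 (SE 0.25, limma adjusted p = 0.578) and 0.09 (SE 0.25, 0.859). Spopl, its paralog, measured 5.87 and 6.77, 2.17 and 4.13, and 4.78 and 4.99 FPKM, with 0.31 (SE 0.38, limma adjusted p = 0.615) and 0.86 (SE 0.38, 0.206). Neither was called, and the difference between these genes and the Tdpoz genes was not tested.

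Promoter windows, from 250 bases before to 50 after a start, were found in the RefSeq table (GRCm38.p6) for Tdpoz1, Tdpoz4, Tdpoz5, Tdpoz7, Tdpoz8 (2 windows), Tdpoz9 and Spopfm2. The windows of Tdpoz4, Tdpoz5 and Tdpoz7 begin from models that start at the coding sequence, so they may not be promoters. Both strands were searched for TATAAA (the TATA box), CCAAT (bound by NF-Y), GGATTA (bound by OBOX and OTX homeodomain factors), GATTNAATC (a core of DUX sites), TCAAGGCCA (bound by NR5A2) and GGGCGG (the GC box). GGATTA was found once each at Tdpoz1, Tdpoz8 (first window), Tdpoz9 and Spopfm2, and in 7.1% of all 32851 windows. It lay on the reverse strand in all of them and is read here as TAATCC, set in capitals within 100 bases on the strand of the gene.
Tdpoz1 (chr3:93676349-93676448, minus): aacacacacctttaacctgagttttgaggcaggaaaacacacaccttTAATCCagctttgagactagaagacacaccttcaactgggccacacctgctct
Tdpoz9 (chr3:94054924-94055023, minus): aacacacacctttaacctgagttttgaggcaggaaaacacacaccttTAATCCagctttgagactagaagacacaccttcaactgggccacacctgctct
Tdpoz8 (chr3:93068685-93068784, plus): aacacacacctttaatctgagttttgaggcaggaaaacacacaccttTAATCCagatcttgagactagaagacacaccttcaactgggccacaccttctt
Spopfm2 (chr3:94178234-94178333, minus): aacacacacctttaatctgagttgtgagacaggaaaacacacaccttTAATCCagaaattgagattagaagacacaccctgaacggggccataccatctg
The match began 118 bases before the start of Tdpoz1, 91 before those of Tdpoz9 and Tdpoz8, and 93 before that of Spopfm2. These windows are copies of one another, with 99.6% identity between Tdpoz1 and Tdpoz9, 85.8% between Tdpoz1 and Tdpoz8 and 79.2% between Tdpoz1 and Spopfm2 over the aligned part, so the match counts as 1 observation rather than 4. CCAAT was found once at Tdpoz1, Tdpoz5, Tdpoz7, Tdpoz8 (first window) and Tdpoz9, and in 37.4% of all windows. It lay after the start at Tdpoz1, Tdpoz8 and Tdpoz9, at positions 18, 35 and 45, in windows that are copies. At Tdpoz5 and Tdpoz7 it lay at position −20, in windows with 99.7% identity to each other. The other motifs, held by 13.6% (TATAAA), 0.3% (GATTNAATC), 0.6% (TCAAGGCCA) and 35.7% (GGGCGG) of all windows, were found in none of these. Tdpoz2 and Tdpoz3 were not in the table.

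CUL3 is the scaffold that POZ proteins bind, and the list of its ligase (40 genes for the scaffold, its neddylation, the COP9 signalosome and POZ adaptors, 36 tested) was read for the same comparisons. Cul3 itself measured 32.8 and 24.3 FPKM with PIASy-WT, 295.2 and 178.2 with PIASy-Mut and 238.3 and 205.2 without injection. The log2 fold change came to −2.93 against non-injection (SE 0.33, limma adjusted p = 0.0224) and −2.98 against PIASy-Mut (SE 0.33, 0.0219). Nedd8, the modifier that activates cullins, was lower too, at −1.35 (SE 0.23, limma adjusted p = 0.0335) and −1.32 (SE 0.23, 0.0342). Cops6, a signalosome subunit, passed against PIASy-Mut at −1.84 (SE 0.38, limma adjusted p = 0.0474) and read −1.56 against non-injection (0.0654). Among the most abundant, Rbx1, the RING subunit, read −0.73 (limma adjusted p = 0.134) and −0.52 (0.256), Dcun1d5, a neddylation factor, 0.33 (0.377) and 0.54 (0.178), and the adaptor Kbtbd8 0.43 (0.362) and 0.62 (0.211). In all, 2 of 36 passed as lower by 1 on the log2 scale against non-injection, near the 5.76% of all genes, and 3 of 36 against PIASy-Mut, beside 6.01%. At the study's change of 2 only Cul3 passed, in both comparisons. At a change of 1, 0 were higher in either, and the medians were −0.03 and 0.11, near those of all genes. These counts, too, were 0 without the libraries named for all genes.

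Other genes of the two-cell stage, many from multicopy families, were read as a list of 21 genes. Of these, 19 were present and tested, and they moved in part. The list was not limited to such families, since it held Arg2, Tmem92 and Sp110 too. How far its copies share stretches was not measured. Against non-injection 3 of 19 were lower by a log2 fold change of 1 with the adjusted p (Usp17lb, Obox3 and Obox6), beside 5.76% of all genes, and against PIASy-Mut 4 of 19, with Tcstv3 added, beside 6.01%. None was higher by this rule, but 8 of 19 read above 0 against non-injection. Among these was Usp17le, singled out after its values were seen, at 2.12 and 1.95 (limma adjusted p = 0.0877 and 0.105), with both PIASy-WT libraries above the other 4. The medians of the 19 genes, −0.30 and −0.34, lay nearer to 0 than those of the Tdpoz genes, a difference that was not tested. The homeobox gene Obox6 read −3.64 and −3.90 (limma adjusted p = 0.0224 and 0.0219), the deubiquitinase gene Usp17lb −2.55 and −2.83 (0.0224 and 0.0219), and Tcstv3, a two-cell gene, −1.14 and −1.39 (0.0731 and 0.0499). Without those same libraries the counts of this list were 0 as well.

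The pattern of the members over the 6 libraries, taken as the mean of the centred log2(FPKM + 1) of the 4 tested genes, was closest to that of AC122357.1, a pseudogene on chromosome 13, among 16096 other genes, with a root mean square difference of 0.095. Fbxo5 (0.103), an inhibitor of the anaphase-promoting complex, Atg13 (0.112), an autophagy initiation factor, Rrp36 (0.113), a ribosomal RNA processing factor, and Nif3l1 (0.114) followed. The members themselves lay at 0.203 (Tdpoz4), 0.358 (Tdpoz1), 0.680 (Tdpoz2) and 0.691 (Tdpoz3) from their own mean, and the nearest relative, Gm9117, ranked 26th at 0.152. With 6 libraries this likeness rests mostly on the split between PIASy-WT and the rest.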

How the data were processed

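The authors made SMART-Seq v4 cDNA (11 cycles) and Nextera XT libraries (13 cycles), trimmed reads with Trim Galore (Q20), aligned them to mm10 with STAR, counted uniquely mapped reads with featureCounts and deposited FPKM values. The annotation release, software versions and use of strand are not given in the sources used here. ERCC spike-ins were added by the authors, but the table has 0 spike-in rows. FPKM times gene length came out as whole multiples of 1 fragment for 100% of values above 0 (tolerance 0.01), which gave the fragments quoted.

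Fits used limma 3.58.1 (R 4.3.3, lmFit and eBayes with a trend) on log2(FPKM + 1) over all 6 libraries. They covered the 16100 genes that reached an FPKM of 1 in 2 or more libraries, with Benjamini-Hochberg adjustment over all of them. The code was run on simulated counts with a fixed spread, not estimated from these libraries. Recovery was required there only of changed genes with a mean FPKM of at least 10. With 2 against 2 libraries an exact permutation test cannot go below a two-sided p of 0.333, so p-values rest on limma's pooled spread. The libraries are separate pools by their labels, and p-values measure only the spread between them. The authors tested counts with DESeq2. Sequences were compared with Biopython 1.88 on the GENCODE M21 transcripts, and 6 genes were given newer names from RefSeq. Intergenic copies were not searched. Named genes were all members, genes named Tdpoz or Spop, relatives at the locus, locus genes with at least 10 fragments in 2 libraries, list genes past the threshold or of highest FPKM, and the 5 most similar patterns. The relatives named were those called and the most and least changed abundant ones, chosen after their values were seen. The members and the gene lists were chosen with earlier results of these data known.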

Additional observations from a re-analysis of the deposited data

How the results depend on the processing

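All 4 tested members stayed below 0 in both PIASy-WT comparisons under all 16 alternatives, but which of them passed the threshold depended on the setting. Against non-injection the count of 1 (Tdpoz1) became 0 without a filter on low values, under quantile normalization and with eBayes without a trend, and 2 at a log2 fold change of 1 (added after seeing the data). Against PIASy-Mut it became 0 without a filter and with only the 4 libraries compared, and 2 with an FPKM filter of 5, with voom on the recovered fragments (both Tdpoz1 and Tdpoz2) and at a log2 fold change of 1. Leaving out 1 library gave counts of 0 to 1 in both comparisons. Against non-injection, the count was 0 without either non-injection or either PIASy-WT library. Against PIASy-Mut, it was 0 without any library but PIASy-Mut replicate 2. The adjusted p of Tdpoz1 ran from 0.00564 to 0.244 and from 0.00295 to 0.217, and that of Tdpoz4 from 0.0150 to 0.244 and from 0.0145 to 0.217. In PIASy-Mut against non-injection, where nothing was called, the sign turned for Tdpoz1 (−0.13) and Tdpoz3 (0.30) without PIASy-Mut replicate 1, and for Tdpoz4 without non-injection replicate 1 (0.02) and without PIASy-Mut replicate 2 (0.18). Over all 6 left-out libraries these ran from −0.13 to 0.77 (Tdpoz1), 0.32 to 2.22 (Tdpoz2), −0.77 to 0.30 (Tdpoz3) and −0.23 to 0.18 (Tdpoz4). Quantile normalization moved the median of all genes from −0.03 to 0.08 for PIASy-WT against PIASy-Mut and from 0.01 to 0.08 against non-injection. The summed level of the members moved from −2.16 to −1.82 against PIASy-Mut and from −1.86 to −1.60 against non-injection, on the log2 scale. The cause of these changes was not tested.

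No clear pairing by replicate number was seen: the correlations of replicate differences were 0.00368, 0.0851 and 0.0637. Low correlations of noisy differences cannot exclude a weak pairing. With the replicate block the counts were 1, 1 and 0, as without it. Shared stretches of 25 bases, the length of the second read, came to 64.7% for Tdpoz1, 73.1% for Tdpoz2, 79.5% for Tdpoz3 and 71.6% for Tdpoz4. Counts of 2 to 34 fragments limit Tdpoz2 and Tdpoz3.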

Other observations

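Of 54 genes within 500 kb of a member that are no copies, 7 had at least 10 fragments in 2 libraries. S100a11, 1700040D17Rik and Gm42463 reached that number through the PIASy-WT libraries alone, so their direction was set by the filter and they are given as fragments. S100a11, a calcium-binding protein, had 21 and 18 fragments with PIASy-WT and 1 or 2, under the limit of 3, in each of the other 4 libraries. 1700040D17Rik had 14 and 20 against 1 to 4, and Gm42463 had 11 and 17 against 2 to 4. The other 4 genes passed in other groups too, and none of them was called. Them4, a thioesterase, read −1.51 against non-injection (limma adjusted p = 0.108) and −1.64 against PIASy-Mut (0.0932), and Mrpl9, a mitochondrial ribosomal protein, −0.56 (0.417) and −0.46 (0.504). Tdrkh, a piRNA pathway factor, read −0.04 and −0.44, and Tchh 0.53 and −0.13.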
